A study of Mus musculus with 6 samples.

Results

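The 8 genes described here, Clec9a, Cadm1, Cd24a, Naaa, Ppt1, Wdfy4, Snx22 and Gcsam, are genes of type 1 conventional dendritic cells that encode proteins acting at the cell surface, in lysosomes, on vesicles or in signalling. They were chosen by symbol with earlier results of these data known, so the shares of all genes given below describe them and test nothing. All 8 were found among the 14912 gene symbols of the table, and all 8 passed the minimum mean value, as did 11844 genes in all. Bone marrow cells of wild-type C57BL/6J mice were grown with FLT3 ligand at 50 ng/ml, which was renewed on day 7. The titles of all 6 samples carry the label tol_DC. Midkine is a secreted growth factor that binds heparin, and its recombinant human form was added at 10 ng/ml to 3 cultures for the last 2 days, while 3 control cultures went without it. The labels give no age and name no sort, so each library was taken as the RNA of a whole culture. They do not say whether replicates came from separate mice. The p-values rest only on the spread of these samples, with variances drawn toward a trend over all genes, and that spread may be technical.

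Type 1 conventional dendritic cells take up dying cells and show the antigens of those cells to CD8 T cells on MHC class I molecules, a route called cross-presentation. FLT3 ligand drives their growth from bone marrow progenitors, and the transcription factors Irf8 and Batf3 specify them. Cultures with FLT3 ligand also yield type 2 conventional and plasmacytoid dendritic cells.

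With midkine 7 of the 8 genes were lower, none was higher, and Gcsam was not called (limma on log2 values, adjusted p under 0.05 over all genes). Over all genes tested 21.8% were called lower and 20.9% higher. The fall was deepest for Naaa, a lysosomal amidase gene, at 3.46-fold, followed by Snx22, a sorting nexin gene, at 2.51-fold and Clec9a, a receptor for dead cells, at 2.04-fold. Ppt1 (1.96-fold), Cd24a (1.65-fold), Wdfy4 (1.59-fold) and Cadm1 (1.50-fold) fell by less. The median log2 fold change of the 8 genes was -0.84, against -0.0086 over all genes tested. All 3 midkine values lay below all 3 control values for 7 of the 8 genes, as they did for 26.2% of the genes tested, and the groups did not overlap in either direction for 51.3%. Of the 8 genes 6 were called and at least 1.5-fold lower, against 10.3% of the genes tested, with Cadm1 just under that fold, and 3 were at least 2-fold lower, against 3.84%.

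Depth was 5089338 to 5532055 reads per library in the control group and 5685055 to 6453768 in the midkine group. Reads on the 8 genes made up 0.255% to 0.286% of a library in the control group and 0.10% to 0.117% in the midkine group. The pan dendritic cell genes Flt3, Itgax, Zbtb46, Cd74 and H2-Aa were read in all 6 libraries, as were all 8 genes themselves. Mitochondrial ribosomal RNA took 9.33% to 9.86% of control reads and 18.1% to 20.9% of midkine reads, and its part in the falls was not tested. In bulk samples such as these, a smaller share of type 1 cells and less RNA per cell cannot be told apart. Nor can a change in other cells that carry the same gene. The values behind these counts are shown by library in the plot of normalised read counts.

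**Figure D1:**
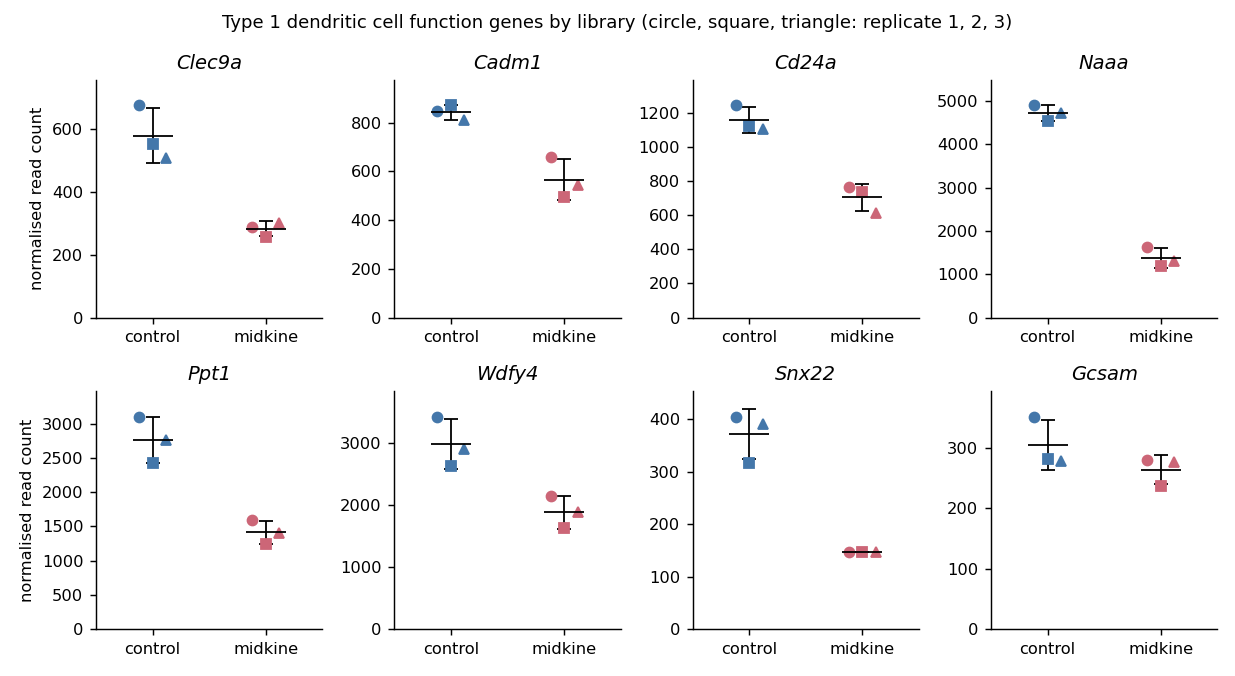
Normalised read count of each of the 8 genes (vertical axis from 0) in the 3 control and 3 midkine libraries, with the group mean (long bar) and SD (error bars, n = 3). The 3 midkine libraries lie below the 3 control libraries in every panel but that of Gcsam, where 279.4 in midkine library 1 touches 279.3 in control library 3.

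The bases around the start sites are shown for Naaa, which fell most, and for Clec9a and Ppt1, the members whose windows hold a match to a motif of the interferon response type. Each run reads 5′ to 3′ on the gene's strand from 250 bases before the RefSeq start to 12 bases after it, in the RefSeq build GRCm38.p6. Clec9a lies at chr6:129408612-129408873 on the plus strand, Ppt1 at chr4:122835977-122836238 on the plus strand and Naaa at chr5:92278170-92278431 on the minus strand. Capitals mark the motif matches.
Clec9a: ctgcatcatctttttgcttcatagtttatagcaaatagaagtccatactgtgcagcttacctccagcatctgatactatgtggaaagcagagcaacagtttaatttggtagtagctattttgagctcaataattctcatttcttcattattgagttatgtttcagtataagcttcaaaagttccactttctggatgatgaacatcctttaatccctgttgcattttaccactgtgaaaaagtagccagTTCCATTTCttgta
Ppt1: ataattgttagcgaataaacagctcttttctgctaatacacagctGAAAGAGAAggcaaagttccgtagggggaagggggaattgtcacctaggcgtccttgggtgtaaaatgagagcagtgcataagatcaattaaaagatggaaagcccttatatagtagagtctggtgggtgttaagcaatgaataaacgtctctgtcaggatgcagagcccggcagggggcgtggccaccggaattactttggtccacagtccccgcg
Naaa: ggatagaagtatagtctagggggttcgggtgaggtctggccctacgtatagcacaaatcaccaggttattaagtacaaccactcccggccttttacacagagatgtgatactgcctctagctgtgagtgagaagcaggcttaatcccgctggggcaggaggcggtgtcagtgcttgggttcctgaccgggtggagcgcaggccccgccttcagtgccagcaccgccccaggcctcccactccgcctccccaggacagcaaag
Windows of 300 bases were matched by symbol for 6 of the 8 genes, leaving Cadm1 and Cd24a. They were searched on both strands for TGANTCA (AP-1 type), GAAANNGAA (interferon response type), GGAANNGAA (ETS-IRF composite, which overlaps the former where both match) and GAGGAA (PU.1 type). GAAANNGAA was matched once in Ppt1, from position -205 relative to the start, and once in Clec9a, on the other strand from position -2, across the start itself. Of all 32851 windows 8.56% held this motif. GAGGAA had 2 matches in Gcsam, the gene that was not called, and in 28.3% of all windows. TGANTCA (7.81% of all windows) and GGAANNGAA (8.24%) were matched in none of the members' windows. The Naaa, Wdfy4 and Snx22 windows held no match to these letters.

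Among the surface proteins, Clec9a encodes a C-type lectin receptor that binds actin filaments exposed on dead cells and signals through the kinase Syk. Its values were 676, 552 and 508 normalised read counts in control libraries 1, 2 and 3 and 288, 256 and 303 in midkine libraries 1, 2 and 3. The highest midkine value was below the lowest control value, and the mean fell from 579 ± 87.4 to 282 ± 24.1 (SD, n = 3 each). On the log2 scale this is -1.03 with an SE of 0.10 and a limma adjusted p of 1.4e-08. The gene lies on chromosome 6 from 129408862 to 129424763 of GRCm38, and 184 bases of its exons overlap an annotated exon of its neighbour Clec1b on the same strand. Clec1b was low, at 27.0 ± 8.61 in control and 24.9 ± 9.24 in midkine libraries, a log2 difference of -0.14 (limma, adjusted p = 0.726).

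Cadm1 encodes an adhesion molecule of the immunoglobulin superfamily that binds Crtam on activated T cells. It was read at 846, 871 and 809.8 normalised counts in control libraries 1 to 3 and at 657, 494 and 546 in midkine libraries 1 to 3. Midkine library 1 came closest to the control group, and the groups did not overlap. The log2 fold change was -0.58 (SE 0.09, limma adjusted p = 1.6e-05), and the gene lies on chromosome 9 from 47530173 to 47857637.

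Cd24a encodes a small glycoprotein tethered to the membrane by a lipid anchor, which is also carried by B cell precursors, neutrophils and red cell precursors. Its values were 1246, 1123 and 1107 normalised read counts in control libraries and 766, 736 and 615 in midkine libraries. The groups did not overlap, and the mean went from 1159 ± 75.9 to 706 ± 79.8 (log2 fold change -0.72, SE 0.09, limma adjusted p = 3.1e-07). Of 10 neutrophil markers 5 were tested, 3 fell and Mmp8 rose, and their summed value was 553 to 679 in control and 93.8 to 114 in midkine libraries. The neutrophil markers Elane and Ly6g had 5 reads and 1 read over the control group and 0 in the midkine group. The summed value of 7 B lineage markers was 142 to 262 in control and 118 to 159 in midkine libraries, with Ebf1 and Vpreb1 (no read with midkine) called lower of 4 tested. Without control replicate 2 or 3 Vpreb1 missed the minimum mean value and Ebf1 was not called (-0.35 and -0.44), nor was Ebf1 without midkine replicate 3 (-0.39) or without a variance trend (limma, adjusted p = 0.0612). Of 9 red cell markers the 4 globin genes in the table reached at most 8.25 in sum. Among all genes tested 21.8% were called lower and 20.9% higher, and the part of these cells in the fall of Cd24a was not tested. Transcripts of Cd24a, on chromosome 10 from 43578284 to 43584265, share a stretch of 218 bases at 96.8% identity with the annotated gene Gm6212, so reads from it could be split.

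The lysosomal enzymes held the gene with the largest fall. Naaa encodes an acid amidase that breaks down palmitoylethanolamide, a lipid mediator that dampens inflammation. Control libraries 1 to 3 gave 4901, 4527 and 4732 normalised read counts for it, and midkine libraries 1 to 3 gave 1627, 1190.4 and 1309. The control values were thus close together, and the highest midkine value was well below them. The mean of 4720 ± 187 in control libraries fell to 1375 ± 226 (log2 fold change -1.79, 95% interval -1.97 to -1.61, limma adjusted p = 2.2e-14), and 0.777% of the genes tested had a lower log2 fold change. Naaa lies on chromosome 5 from 92257659 to 92278170, and no annotated exon of another gene of the table overlaps its exons.

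Ppt1 encodes palmitoyl-protein thioesterase 1, which strips palmitate from proteins in the lysosome. Its normalised read counts were 3105, 2424 and 2761 in control libraries and 1585, 1243 and 1403 in midkine libraries. In both groups library 1 was the highest and library 2 the lowest, and the groups did not overlap. The log2 fold change was -0.97 (SE 0.09, limma adjusted p = 3.9e-09). Exons of Ppt1, on chromosome 4 from 122836242 to 122859175, overlap those of Cap1 on the other strand by 129 bases. Cap1 had 999.8 ± 70.3 normalised counts in control and 955 ± 69.9 in midkine libraries, a log2 difference of -0.07 (limma, adjusted p = 0.552). With scaling to total counts it was called, at -0.32.

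Of the vesicle proteins, Wdfy4 encodes a large BEACH-domain protein needed for cross-presentation of antigens from dead cells. It stood at 3428, 2622 and 2912 normalised read counts in control libraries 1 to 3 and at 2152, 1621 and 1882 in midkine libraries 1 to 3. Library 1 was again the highest and library 2 the lowest of each group. The mean fell from 2987 ± 408 to 1885 ± 266 (log2 fold change -0.66, SE 0.10, limma adjusted p = 3.8e-06). Wdfy4 lies on chromosome 14 from 32959547 to 33185508.

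Snx22 encodes a sorting nexin, a protein that binds membrane lipids through its PX domain. Its values were 405, 317 and 392 normalised read counts in control libraries and 146.5, 146.6 and 146.3 in midkine libraries. These 3 midkine values came from 130, 160 and 145 reads, and their SD of 0.169 is below the 12.2 that counting error alone would give. The fall of 1.33 on the log2 scale (SE 0.11, limma adjusted p = 3.9e-10) is second to that of Naaa. Snx22 lies on chromosome 9 from 66065176 to 66069719, and 496 bases of its exons overlap Ppib on the other strand. Whether the counting used strand is not given in the sources used here, so reads of such pairs may not be told apart. Ppib was at 400 ± 41.4 in control and 452 ± 16.4 in midkine libraries (a log2 difference of 0.18, limma adjusted p = 0.126), at -0.08 with scaling to total counts, and called at 0.26 without control replicate 1.

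Gcsam, the signalling member, encodes an adaptor studied mainly in germinal centre B cells, where it limits cell movement. Its normalised read counts were 352, 283 and 279.3 in control libraries and 279.4, 236 and 277 in midkine libraries. Control library 1 stood above the rest, midkine library 2 stood below, and the other 4 values, from both groups, lay between 277 and 283. The log2 fold change was -0.20 with a 95% interval from -0.43 to 0.03 (limma adjusted p = 0.149), so that no change and a decrease down to the lower end of that interval could not be told apart. Scaling to total counts gave -0.46, which was called, and leaving the ribosomal RNA out of those totals gave -0.28, also called. Without control replicate 1 it was -0.09, and without midkine replicate 2 it was -0.12, neither called. Gcsam lies on chromosome 16 from 45610380 to 45622867.

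Library 1 was the highest of its group for 7 of the 8 genes among controls and for 6 of the 8 with midkine, where it was the highest for 37.0% and 35.4% of all genes tested. Midkine library 2 was the lowest for 6 of the 8 genes and for 35.0% of the genes tested. The summed value of the 8 genes was 14959 in control library 1, 12719 in control library 2 and 13500 in control library 3. It was 7502 in midkine library 1, 5923 in midkine library 2 and 6481 in midkine library 3. No midkine library reached the lowest control sum. The plot of fold changes among all genes places the 8 genes against the genes tested.

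**Figure D2:**
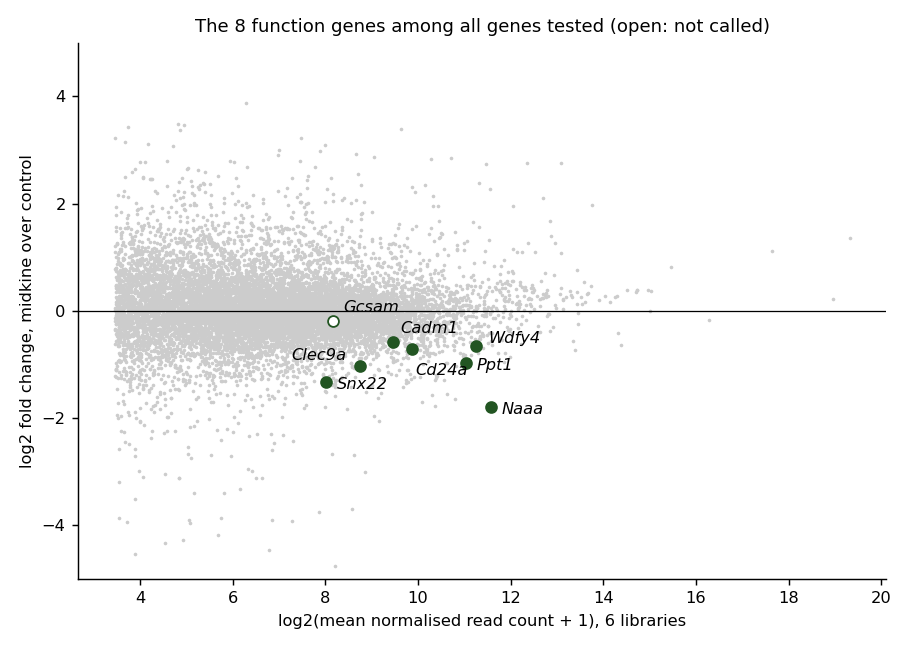
Log2 fold change (midkine over control, vertical axis) against log2 of the mean normalised read count plus 1 (horizontal axis) for the 11844 genes tested (grey) and the 8 genes (green). Naaa, at -1.79, lies lowest of the 8, and Gcsam, drawn open because it was not called, lies nearest to 0.

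Fold changes within the 8 genes ran from -1.79 for Naaa to -0.20 for Gcsam on the log2 scale. Ratios to Clec9a within a library do not depend on scaling between libraries, and 7 of them were compared with an exact two-sided permutation test over the 20 arrangements of the 6 libraries, which cannot give a p below 0.10. The log2 ratio of Gcsam to Clec9a was -0.92 ± 0.05 in control and -0.09 ± 0.04 in midkine libraries, without overlap (difference 0.83; SD, n = 3 each; exact p = 0.1, adjusted p = 0.175). That of Naaa was 3.04 ± 0.18 and 2.27 ± 0.20, also without overlap (difference -0.76, exact p = 0.1, adjusted p = 0.175). The groups also did not overlap for Cadm1 (difference 0.44) and Wdfy4 (difference 0.36), each with an exact permutation p of 0.1 and an adjusted p of 0.175. They overlapped for Ppt1 (difference 0.06, exact p = 0.5, adjusted 0.5), Snx22 (difference -0.30, exact p = 0.2, adjusted 0.28) and Cd24a (difference 0.31, exact p = 0.3, adjusted 0.35). The Ppt1 difference changed sign without control replicate 2 or midkine replicate 1. Each difference equals the log2 fold change of that gene less that of Clec9a, which was -1.03. A gene without any change would thus also rise against Clec9a. The share of all genes tested whose groups do not overlap in this ratio was not computed. None of the 7 differences passed the threshold, which this number of libraries does not allow, and the plot of ratios to Clec9a gives the value in each library.

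**Figure D3:**
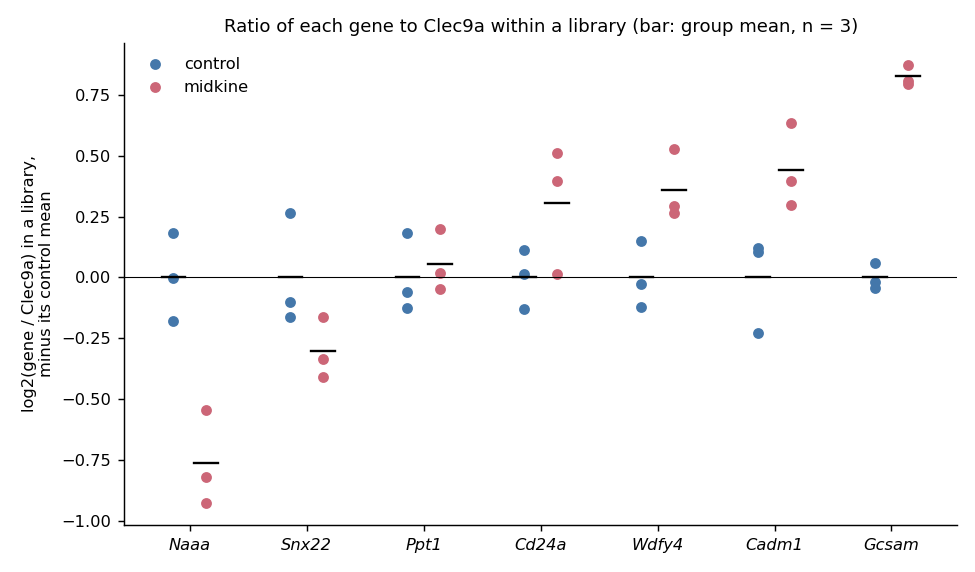
Log2 ratio of each gene to Clec9a in each control (blue) and midkine (red) library, drawn relative to the control mean of that gene (vertical axis, log2), with bars at the group means (n = 3). The midkine libraries lie below the control libraries for Naaa (difference -0.76) and above them for Gcsam (0.83), Cadm1 (0.44) and Wdfy4 (0.36).

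The genes whose profile over the 6 libraries was nearest to that of Clec9a were Scimp, an adaptor of antigen-presenting cells, Pnp, a purine salvage enzyme gene, and Cks1b, a cell cycle gene. Their root mean square distances between centred log2 values were 0.0652, 0.0716 and 0.0722, and their log2 fold changes were -0.96, -0.97 and -0.99. The nearest of the 8 genes was Ppt1, at rank 43 with a distance of 0.12. Naaa and Gcsam were farther away, at ranks 2714 and 2761.

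Other genes of type 1 dendritic cells went both ways. Of 23 listed, 19 were in the table and 18 were tested, of which 9 fell, 4 rose and 5 were not called, with a median log2 fold change of -0.21. This median moves with single genes: it was -0.34 at a minimum mean of 1 or 50 and with no minimum, -0.46 with scaling to total counts, and -0.29 to -0.15 when 1 library was left out. Over all genes tested the median was -0.0086, with 21.8% called lower and 20.9% higher. Xcr1, whose chemokine receptor guides these cells to CD8 T cells, had 1876 ± 271 normalised counts in control and 635 ± 161 in midkine libraries and was lower by -1.58 on the log2 scale (limma, adjusted p = 8.5e-11). Tlr3 (-1.30), the receptor for double-stranded RNA, Ifi205 (-1.19) and Sept3 (-1.04), a septin gene, fell as well. Of the transcription factors, Irf8 fell by 0.73 on the log2 scale. Batf3 was lower by 0.34 with overlapping groups (limma adjusted p = 0.0372), a call lost without control replicate 1 (-0.26), control replicate 3 (-0.25), midkine replicate 1 (-0.30) or midkine replicate 3 (-0.29). The Batf3 call was also lost with DESeq2 (adjusted p = 0.0774), quantile normalization (limma, adjusted p = 0.0564) and no variance trend (limma, adjusted p = 0.155), so that it held in 12 of 19 alternatives.

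The genes that rose were Itgae (1.51), the integrin chain CD103, Nfil3 (1.29), Ly75 (0.32), an endocytic receptor gene, and Id2 (0.26). Nfil3 and Ly75, and Tlr11 beside the plot, were chosen after their values were seen. The rises of Id2 and Ly75 were lost without control replicate 2 (Id2 0.22, Ly75 0.31) or control replicate 3 (0.24 and 0.28), which left 2 genes higher. Ly75 was also lost without each midkine library (0.31 to 0.33) and with DESeq2 (adjusted p = 0.0994), and held in 11 of 19 alternatives. Id2 was also lost with quantile normalization (0.12), without a variance trend (limma, adjusted p = 0.0809) and with total counts without ribosomal RNA (0.19, where Ly75 was lost at 0.24), and held in 13 of 19. With scaling to total counts the list held 11 lower and 2 higher genes, Id2 was at 0.01 and Ly75 at 0.06. The plot of fold changes sets both groups of genes side by side.

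**Figure D4:**
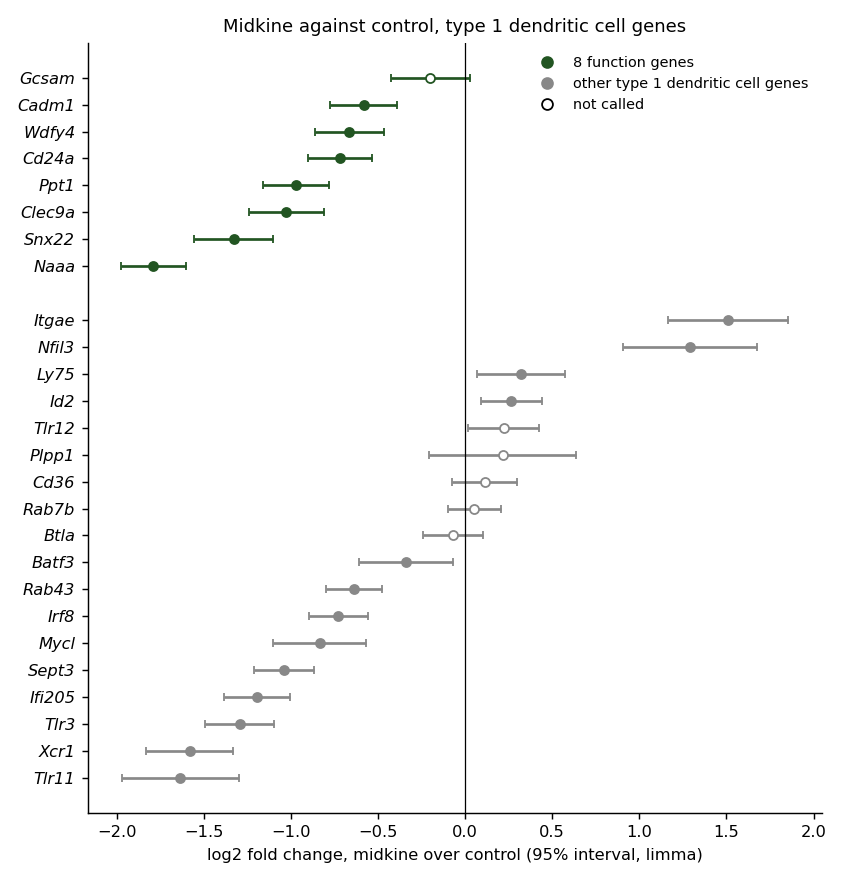
Log2 fold change, midkine over control (horizontal axis), with its 95% interval from limma, for the 8 function genes (green) and the 18 other type 1 dendritic cell genes tested (grey), with genes that were not called drawn open. The 8 genes all lie to the left of 0, whereas the other genes run from Tlr11 at -1.63 to Itgae at 1.51.

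Of 20 genes of the general machinery of cross-presentation 19 were tested, 7 fell, 2 rose and 10 were not called, with a median log2 fold change of -0.16. Across all genes tested 21.8% were called lower and 20.9% higher. Rab43 (-0.64), a GTPase gene that is also in the list of type 1 cells, Plcg2 (-0.53), a phospholipase gene of signalling downstream of Syk, Vamp8 (-0.47) and Cybb (-0.38), the oxidase chain that slows antigen breakdown in phagosomes, fell. Sec22b (0.32) and Syk (0.22), chosen after their values were seen, rose, but with scaling to total counts Sec22b was at 0.07 and Syk at -0.04, neither called, and 11 genes were lower and none higher. Without a variance trend 4 genes were lower and none higher. Leaving out control replicate 3 or midkine replicate 3 ended both calls (Sec22b 0.27 in each case, Syk 0.20 and 0.18). The call of Syk was also lost without control replicate 1 (0.19) or midkine replicate 1 (0.21), with DESeq2 (adjusted p = 0.0578) and with total counts without ribosomal RNA (0.14).

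Relatives and partners of the 8 genes were split, with 7 higher, 7 lower and 11 not called of 25 tested (21.8% of all genes were called lower and 20.9% higher). Total count scaling made this 11 lower and 5 higher. Asah1, the acid ceramidase gene related to Naaa, was at 453 ± 18.6 in control and 445 ± 58.3 in midkine libraries, a log2 difference of -0.03 (limma, adjusted p = 0.824). Ppt2, a thioesterase gene related to Ppt1, was at -0.17 on the log2 scale (limma, adjusted p = 0.323), and both were called with scaling to total counts, at -0.29 for Asah1 and -0.43 for Ppt2. Lypla2, a cytosolic thioesterase gene, fell by 0.63. Among BEACH-domain genes Wdfy3 fell by 0.64, close to Wdfy4, and Nbeal1 rose by 0.86. Of the C-type lectins encoded near Clec9a, Clec7a, the receptor for fungal glucans, rose by 1.00 and Clec12a fell by 0.70. Differences between a member and its relative were not tested. Crtam and Cadm4 were not among the gene symbols of the table.

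Markers of other cell types moved beside the 8 genes, in a comparison that called 21.8% of all genes lower and 20.9% higher. Plasmacytoid markers fell in 10 of 11 cases, with Ccr9 at -4.77, and their summed value was 6895 to 7183 in control and 2033 to 2154 in midkine libraries. Proliferation genes fell in 7 of 7 cases, with Mcm5 at -1.17. Of 9 stromal markers 7 rose and Cxcl12, chosen after its value was seen, fell, and their sum was 13904 to 17218 in control and 36273 to 39198 in midkine libraries, with Postn at 2.35. Type 2 conventional dendritic cell markers were split, with 5 higher and 4 lower of 11, among them Itgam at 0.60 and Clec12a at -0.70, and so were monocyte and macrophage markers, with 4 higher and 3 lower of 12, among them C1qa at -1.21. Of 7 pan dendritic cell genes 3 fell, 1 rose and 3 were not called. Zbtb46, a transcription factor gene of conventional dendritic cells, fell by 0.47, Kit, a growth factor receptor gene, by 0.44 and Dpp4 by 0.43, and the integrin gene Itgax rose by 0.83. Flt3 was at -0.11 on the log2 scale (limma, adjusted p = 0.298), but total count scaling put it at -0.37, a called fall. Vpreb1 had 85 reads over the control libraries and 0 with midkine. Elane (5 control reads in all), Ly6g (1 control read) and the globin gene Hbb-bs (4 midkine reads) were at 0 in the other group, and both groups were near 0 for these. The part of these cells in the values of the 8 genes, and in those of other type 1 genes such as Irf8, was not tested.

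The scaling between libraries set how many genes were called in each direction. Of 5059 calls 49.0% were higher with the deposited scaling and 20.9% of 6102 with scaling to total counts, which moved the median of all genes to -0.27. With that scaling all 8 genes were called lower, with a median of -1.10, a shift that the scaling gives to every gene alike. The plot of alternatives shows each gene's fold change under all 19 of them.

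**Figure D5:**
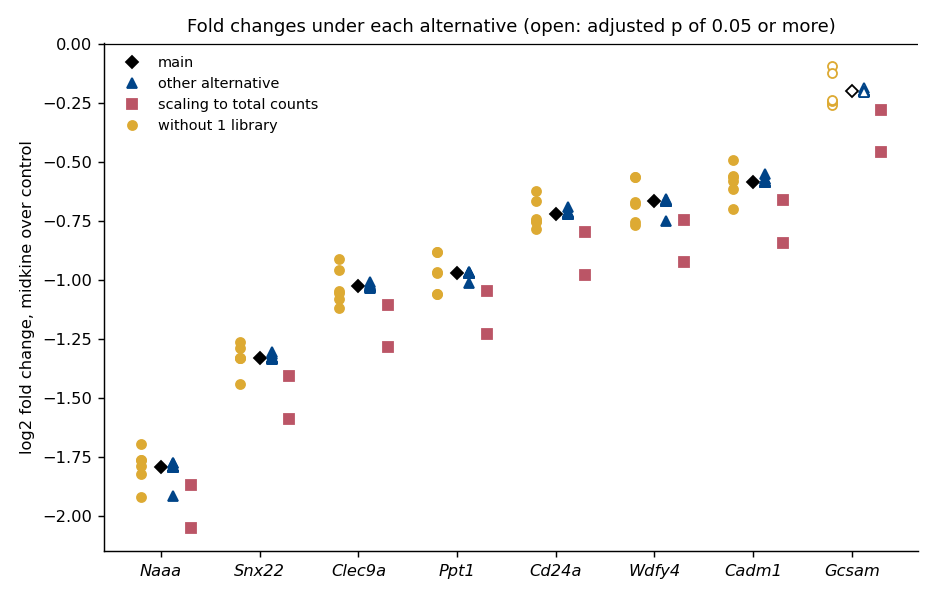
Log2 fold change, midkine over control (vertical axis), of each of the 8 genes in the fit as reported (diamonds), without 1 library at a time (circles), with scaling to total counts (squares) and under the other alternatives (triangles), with values at an adjusted p of 0.05 or more drawn open. Naaa stays between -2.05 and -1.69, and Gcsam is drawn filled only with scaling to total counts, with or without the ribosomal RNA rows.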

How the data were processed

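RNA from 3 control and 3 midkine cultures (500 ng each) was sequenced from its 3' ends with a forward kit, per the labels' protocols. TopHat2 2.0.10 and Bowtie 1.0.0, then SAMtools 0.1.19, HTSeq, FastQC 0.11.0 and DESeq2 are listed without roles in the submitters' processing notes, beside builds GRCm38 and mm10. Neither annotation nor strand setting is stated there. The authors deposited 1 table of signal: each library's reads over its own size factor. Dividing by what 1 read is worth (0.916 to 1.13) gave back whole reads, and 100% of values were whole within 1e-06 reads. For the 8 genes counting error was at most 8.77%, at 130 reads. No molecular identifiers are named.

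Genes with a mean value of at least 10 were tested with limma 3.58.1 (R 4.3.3, variance trend) on log2(value + 1), with Benjamini-Hochberg adjustment over all genes and calls at 0.05. This log2 scale carries all fold changes, which it understates for low genes. Alternatives were pseudocounts of 0.5 and 5, minimum means of 1 and 50 or none, TMM, quantile and total count scaling, no trend, a replicate block, edgeR 4.0.16 and DESeq2 1.42.0 on recovered reads, and leaving out each library. The test was checked on simulated data. The genes and lists were chosen with earlier results of these data known. From each list up to 4 called genes with the smallest p were named, beside a fixed set. Positions are from GENCODE vM21 (GRCm38), where 99.6% of symbols were found. Shared transcript stretches of at least 50 bases at 95% identity were sought with BLAST 2.17.0. Python 3.11.15, NumPy 2.4.6, pandas 2.3.3 and matplotlib 3.10.9 were used.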

Additional observations from a re-analysis of the deposited data

How the results depend on the processing

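Clec9a, Cadm1, Cd24a, Naaa, Ppt1, Wdfy4 and Snx22 kept their direction and their call under all 19 alternatives. Their highest adjusted p over these alternatives ran from 0.000289 for Naaa to 0.0147 for Wdfy4, both from limma without a variance trend. Leaving out each library gave -1.12 to -0.91 for Clec9a, -0.70 to -0.49 for Cadm1, -1.92 to -1.69 for Naaa, -1.06 to -0.88 for Ppt1, -1.44 to -1.26 for Snx22, -0.77 to -0.56 for Wdfy4, -0.78 to -0.62 for Cd24a and -0.26 to -0.09 for Gcsam. Gcsam was called only with scaling to total counts (-0.46, adjusted p = 0.00140) and without the ribosomal RNA rows (-0.28, adjusted p = 0.0420), and its adjusted p over the 19 alternatives ranged from 0.00140 to 0.544. Among all genes 1278 were higher and 4824 lower with total count scaling, against 2018 and 3180 with ribosomal RNA left out of the totals. Total count scaling left 2 of the other type 1 dendritic cell genes higher, as did leaving ribosomal RNA out of the totals, and leaving out 1 library gave 2 to 4. The within-library log2 ratio of Ppt1 to Clec9a differed by -0.0057 without control replicate 2 and by -0.014 without midkine replicate 1, and by -0.014 to 0.15 over all libraries left out. Asah1 became 0.072 without midkine replicate 3, with a range of -0.12 to 0.072 over the libraries left out. Clec1b became 0.094 without control replicate 1 and 0.18 without midkine replicate 2, with a range of -0.37 to 0.18. Syk was at -0.036 and Ppib at -0.077 with scaling to total counts. None of these 4 genes was called in those cases, and the cause was not tested. Whether replicate numbers pair the libraries was not settled, since 3 libraries per group are too few to decide it. Deviations of same-numbered libraries from their group mean correlated at -0.0097, 0.029 and -0.058. The replicate block moved the calls from 5059 to 5160 and changed the call of none of the 8 genes. Depth limits Snx22 most, at 130 to 429 reads a library.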
